A study of Mus musculus with 21 samples.

Results

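In the livers of mice kept in normal air and given dexamethasone, the glucocorticoid receptor was called at 257 sites that were rarely listed in hypoxic livers given the same drug. A site was a stretch of the genome in which peaks of any of the 18 receptor peak lists overlapped by at least 1 bp. The 257 sites had a peak in all 3 lists of normoxia with dexamethasone (DEX) and in at most 1 of the 6 lists of hypoxia with DEX. They were 257 of 7398 sites in all and 13.5% of the 1910 sites in all 3 normoxia DEX lists. Of them, 102 were in 0 of 6 hypoxia DEX lists and 155 in 1 of 6. The sites were thus selected on detection in these 9 lists, so detection and tag counts with DEX are given as a description, with no test.

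Receptor binding was measured in whole livers by ChIP-seq, the sequencing of DNA pulled down with an antibody to the receptor, with C57BL/6J mice in 6 groups of 3 libraries that the series names biological replicates. The groups were normoxia with DEX and with saline (PBS) at 21% oxygen, and 7% oxygen for 6 h or 24 h, each with DEX or PBS. DEX was injected into the abdomen at 10 mg/kg, and livers were taken 2 h later in every group, the hypoxic mice having gone back to 7% oxygen. Whole liver holds several cell types, so fewer cells with a bound site and less binding per cell cannot be told apart. The age and sex of the mice are not given in the sources used here.

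Glucocorticoids enter the cell and bind the receptor, which then moves to the nucleus and attaches to DNA, most often as a pair of molecules on a glucocorticoid response element or through other DNA-bound proteins. In liver the receptor is known for driving glucose production during fasting, for shaping fat and bile acid metabolism and for damping inflammation. Low oxygen stabilises the hypoxia-inducible factors (HIF), which bind a short element of their own and switch the cell towards glycolysis, angiogenesis and iron uptake. DEX is a synthetic glucocorticoid, and PBS livers show the receptor with the animal's own hormone.

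Sequence was at hand only where a site shared bases with a promoter window of RefSeq (build GRCm38.p6, the assembly behind mm10), that is, 250 bases before to 50 after an annotated start. This held for 17 of the 257 sites, 6 of them in 0 hypoxia DEX lists, and for 20 distinct windows. The 4 stretches printed here show what the receptor covered at the start of an inflammatory gene and a sterol gene, and examples where a searched motif lay in the bases shared with a site upstream of a start. Each is written in the direction of its gene, 5′ to 3′, and ends at the base before the start or at the edge of the site. Capitals mark a match to ACGTG, the core of the hypoxia response element, or to the half-site AGAACA, in either direction. The first is the start of Cxcl1, which encodes a neutrophil-attracting chemokine (chr5:90891064-90891244, plus strand). The next is the start of Cyp27a1, whose enzyme oxidises the cholesterol side chain on the way to bile acids (chr1:74713285-74713380, plus strand). Then come the starts of the transcript A330023F24Rik (chr1:195017235-195017398, plus strand) and of Lrtm1 (chr14:29017958-29018107, plus strand).
Cxcl1: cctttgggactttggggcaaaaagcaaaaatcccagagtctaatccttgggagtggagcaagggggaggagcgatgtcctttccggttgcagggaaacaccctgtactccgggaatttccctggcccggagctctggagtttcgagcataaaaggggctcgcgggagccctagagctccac
Cyp27a1: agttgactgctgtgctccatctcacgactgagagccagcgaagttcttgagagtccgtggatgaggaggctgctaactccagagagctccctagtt
A330023F24Rik: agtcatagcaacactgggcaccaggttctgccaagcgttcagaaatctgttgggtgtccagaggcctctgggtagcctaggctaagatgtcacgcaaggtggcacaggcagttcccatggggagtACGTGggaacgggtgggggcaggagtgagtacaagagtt
Lrtm1: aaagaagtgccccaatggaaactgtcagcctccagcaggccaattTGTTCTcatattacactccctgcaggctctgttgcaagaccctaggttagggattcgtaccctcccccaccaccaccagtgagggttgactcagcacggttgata

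The core ACGTG, searched on both strands, was in 9 of the 20 whole windows (45.0%). Of the 108 windows shared by the other sites of all 3 normoxia DEX lists it was in 14.8%. Of all 32544 windows it was in 19.7%. Some of the 20 windows overlapped, and 15 of the 17 sites shared 10 or more bases with a window. By site, 8 of the 17 had the core in a window. Only 2 sites, that at A330023F24Rik among them, had it in the bases they shared upstream of a start. The half-site AGAACA was in 2 windows (10.0%), against 26.9% of the 108 and 18.9% of all. The full element, which is AGAACA, then 3 bases of any kind, then TGTTCT, and so contains the half-site, was in 0 of 20 windows, 0 of 108, and 3 of 32544. The C/EBP motif TTGCNNAA was in 25% of the 20 windows, against 21.3% and 10.8%, and CCAAT in 55.0%, against 45.4% and 37.4%. The forkhead motif TGTTTAC and the HNF4 motif CAAAGTCCA were in 0 of the 20. With so few windows these shares are descriptions, and a match in a window is not a bound site. The remaining 240 sites had no sequence to search.

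In the 3 normoxia DEX libraries the 257 sites held few tags. Tag counts are the authors' normalized counts, scaled to 10000000 tags per library, and a list gives a value only where it has a peak. The median over sites was 59.9 tags in normoxia DEX replicate 1, 64.9 in replicate 2 and 55.0 in replicate 3. The mean over the 3 libraries had a median of 59.4 tags at the 102 sites in 0 hypoxia DEX lists and 61.0 at the 155 in 1. That median went up with each further hypoxia list, to 66.4, 71.1, 78.6 and 88.9 tags at sites in 2, 3, 4 and 5 lists, and stood at 148 tags at the 935 sites in all 6, which are the sites in all 9 DEX lists. The strongest site in 0 lists had a mean of 173 tags and the strongest in all 6 had 1778. Just outside the rule, the 169 sites in 2 hypoxia lists had the 66.4 given above, and the 406 sites in 2 of 3 normoxia DEX lists and at most 1 hypoxia DEX list had 53.95 tags.

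**Figure D1:**
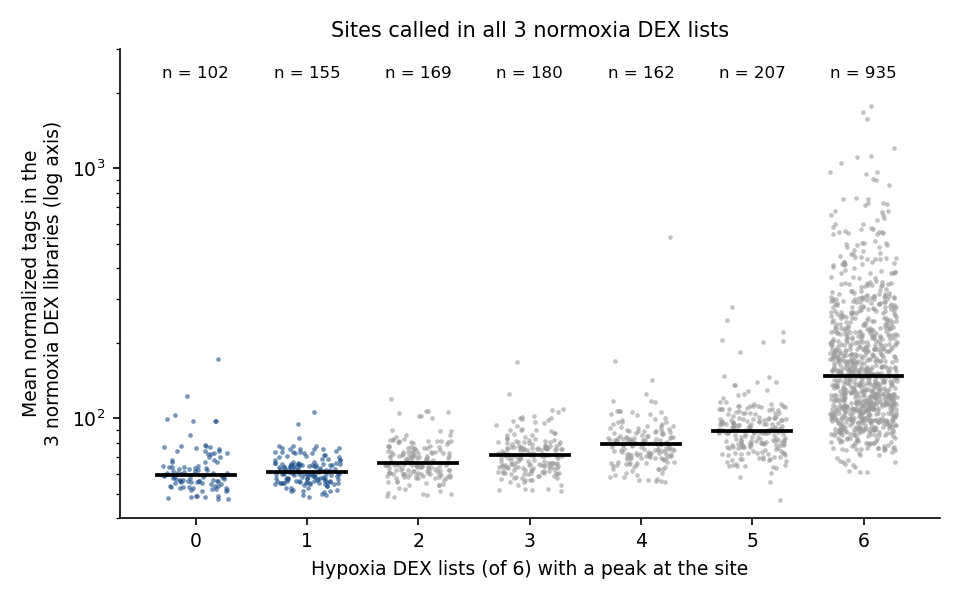
Mean normalized tags of the 3 normoxia DEX libraries (log axis) for each of the 1910 sites in all 3 normoxia DEX lists, by the number of hypoxia DEX lists with a peak; blue marks the 257 sites in 0 or 1 list, grey the rest, and black lines are medians. The medians run from 59.4 tags in 0 lists to 148 in 6, and the 257 sites lie at the low end with a few above 100.

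Read by level, the share of normoxia DEX sites that were rarely called in hypoxia was high among weak sites and near 0 among strong ones. It was 218 of 574 sites (38.0%, 95% Wilson interval 34.1 to 42.0) between 50 and 75 tags, and 23 of 459 (5.01%, 3.36 to 7.41) between 75 and 100. Between 100 and 150 tags it was 3 of 385 (0.779%, 0.265 to 2.27), and from 150 tags on 1 of 474 (0.211%, 0.0373 to 1.19). Under 50 tags it was 12 of 18 sites, too few to weigh. The intervals cover counting error over sites only.

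**Figure D2:**
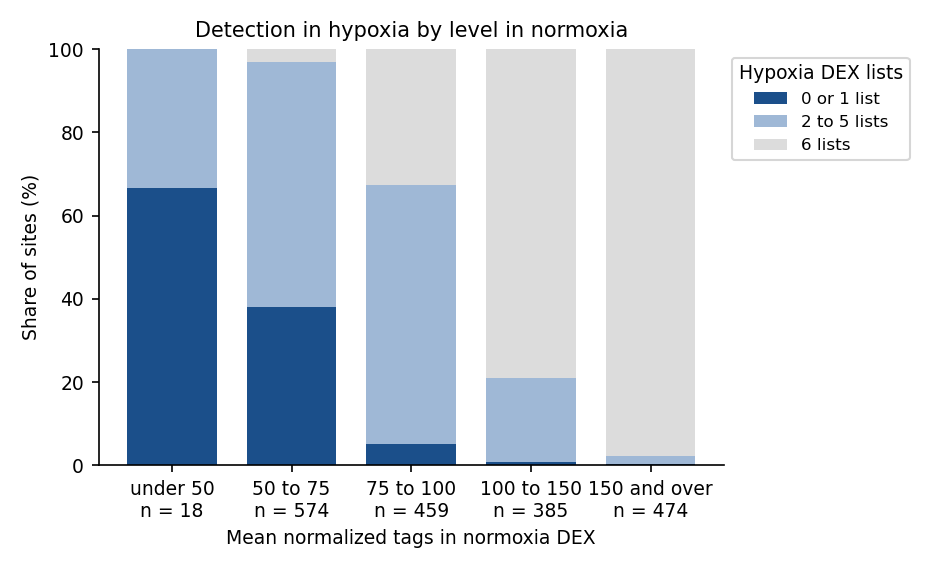
Share of sites (%) in 0 or 1, in 2 to 5 and in all 6 hypoxia DEX lists, for the 1910 sites in all 3 normoxia DEX lists, by mean normalized tags in normoxia DEX. The share in 0 or 1 list is 38.0% between 50 and 75 tags and 0.211% from 150 tags on.

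Only a few of the 257 sites lay above the peak callers' minimum in every hypoxia DEX list. The lowest score in every list was 50. Taken as 50 tags and scaled to library size, this minimum came to 37.9 to 47.7 normalized tags in normoxia DEX and 39.5 to 86.6 in hypoxia DEX. It is approximate, since score and normalized tags are not the same count: the lowest tags listed in a hypoxia DEX library were 38.8 to 83.2. The lowest of a site's 3 normoxia values was above the minimum of all 6 hypoxia lists at 4 of the 257 sites, against 721 of the 935 sites in all 9 DEX lists and 41.9% of all 1910. It was above the minimum of at least 5 lists at 70 sites (27.2%) and of at least 4 at 190. The highest minimum, 86.6 tags, belonged to 6h hypoxia DEX replicate 2, the shallowest library, and without that library 79 of 285 sites were above every remaining minimum. The 4 sites lay in Dynlrb1, Acsl1 and Scara5 and near Gdf15. Their lowest normoxia values were 1.55, 1.07, 1.02 and 1.12 times the highest minimum, so only Dynlrb1 stood well clear of it. With the minimum taken from peaks of score 50 to 54, 1 site was above it in every hypoxia list. A peak also had to pass 4-fold over input and over the surrounding 10000 bp, so clearing the minimum does not ensure a call. The median fold over the surroundings in normoxia DEX was 19.3 at sites in 0 hypoxia DEX lists and 45.3 at those in all 6.

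The strongest site lay inside Dynlrb1, which encodes a light chain of the cargo motor dynein (chromosome 2, 155243239 to 155243455, 6814 bp from the nearer end of the gene). It held 134.3, 210.9 and 173.4 normalized tags in the 3 normoxia DEX libraries and had no peak in any hypoxia DEX or PBS list. Its lowest normoxia value was 1.55 times the highest hypoxia minimum.

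The next lay inside Acsl1, whose enzyme activates long-chain fatty acids for oxidation and lipid synthesis (chromosome 8, 46482079 to 46482280). It held 122.9, 151.8 and 92.9 normalized tags in normoxia DEX, and again none of the 6 hypoxia DEX lists had a peak there. Scara5, which encodes a ferritin receptor that takes up iron, held a site of the same kind near one end of the gene (chromosome 14, 65759581 to 65759810, 5131 bp from it), with 94.1, 111.7 and 88.2 tags and 0 of 6 hypoxia peaks. All 3 sites were also in 0 of 9 PBS lists.

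The site 6852 bp from Gdf15, a stress-induced cytokine that curbs appetite, was in 1 hypoxia list (chromosome 8, 70639215 to 70639430). It held 97.1, 111.7 and 109.1 tags in normoxia DEX and 124.7 in 6h hypoxia DEX replicate 2. The single hypoxic value was therefore above all 3 normoxic ones, while the other 5 hypoxia lists had no peak. Tags in that library ran high in general. Its median at the sites in all 9 DEX lists was 202.7 tags, against 138.6 to 156.3 in the normoxia DEX libraries. The higher value thus does not show more binding in hypoxia.

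Below these came sites that cleared 5 of the 6 hypoxia minima. A site inside Ppard, which encodes PPAR delta, a nuclear receptor for fatty acids, held 91.8, 108.8 and 85.2 tags in normoxia DEX and 47.5 in 24h hypoxia DEX replicate 3 (chromosome 17, 28279332 to 28279628). In Fam71e1 the values were 119.1, 106.9 and 72.0 tags, and in Map4k3, a kinase of the nutrient-sensing and stress pathways, 100.1, 112.6 and 79.0. A site 28829 bp from Cpeb4, which encodes a protein that controls translation through messenger RNA tails, held 91.8, 126.0 and 75.1. Another, 3459 bp from Mknk2, the gene of a kinase that phosphorylates the translation factor eIF4E, held 91.0, 76.4 and 89.0. The last 4 sites had no hypoxia DEX peak. In Ttc39c the replicates differed most, with 59.2, 147.9 and 101.4 tags, also with no hypoxia peak.

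The site 1087 bp from Cebpb, the gene of the liver transcription factor C/EBP beta, held 74.3, 84.9 and 73.5 tags in normoxia DEX and 62.5 in 24h hypoxia DEX replicate 3, below all 3. Further sites had a peak in that same library: Dcaf1 with 52.2 tags against 110.8, 90.7 and 48.0, Crip2 with 45.9 against 81.9, 75.4 and 75.1, and Retreg1, an endoplasmic reticulum turnover receptor gene, with 67.2 against 79.7, 81.1 and 71.2. Of these hypoxic values the one at Dcaf1 lay inside the normoxic range, and the other two lay below it. The sites nearest to Kctd17, Serpina1e, C87436 and Bmf had means of 78.4, 77.4, 77.3 and 77.1 tags and no hypoxia peak.

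**Figure D3:**
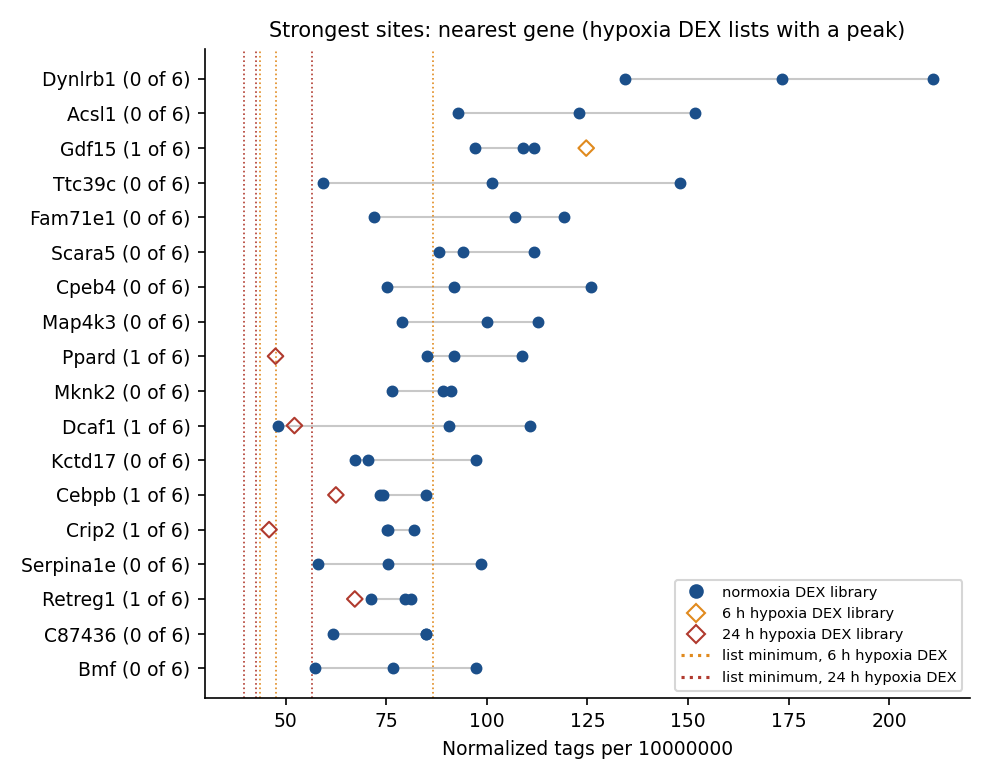
Normalized tags per 10000000 (x axis) at the 12 strongest sites in 0 hypoxia DEX lists and the 6 strongest in 1; blue points are the 3 normoxia DEX libraries, open diamonds the hypoxia DEX library with a peak, and dotted lines the score minimum of 50 of the 6 hypoxia DEX lists, scaled to library size. Only at Dynlrb1, Acsl1, Gdf15 and Scara5 do all 3 blue points lie to the right of every dotted line.

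The hypoxia DEX libraries differed widely in how many of the sites they listed. The library 24h hypoxia DEX replicate 3 called 104 of them (40.5%), 6h hypoxia DEX replicate 1 called 34 (13.2%), 6h replicates 2 and 3 called 10 and 6, 24h replicate 2 called 1 and 24h replicate 1 called 0. Set against each library's own median at the sites in all 9 DEX lists, the minimum was 27.8% in 24h replicate 3 and 32.1% in 6h replicate 1, and 40.3% to 47.6% in the other 4. In normoxia DEX it was 24.3% to 31.8%. The share of a library's tags that fell in its peaks was 2.85% to 3.68% in normoxia DEX and 1.38% to 3.15% in hypoxia DEX, and list lengths were 2235 to 3659 and 1235 to 2287 peaks. Depth was 10476853 to 13181686 tags in normoxia DEX and 5772670 to 12642344 in hypoxia DEX. The ranges of depth, list length and share of tags in peaks thus lay lower in hypoxia DEX but overlapped those of normoxia DEX. Their part in the absence of these sites from the hypoxia lists was not tested.

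**Figure D4:**
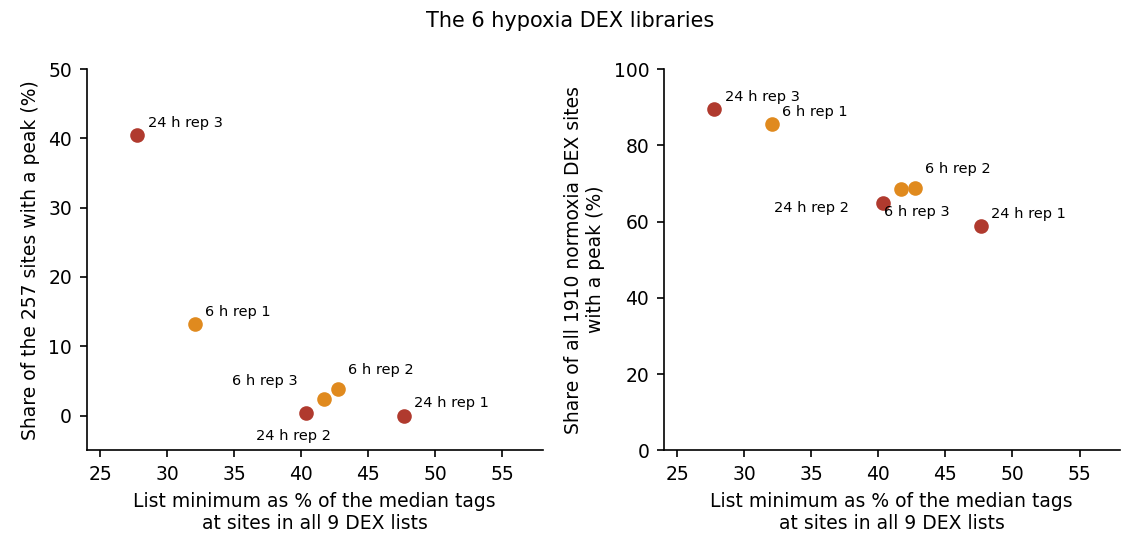
Share of the 257 sites (left, %) and of all 1910 sites in all 3 normoxia DEX lists (right, %) with a peak in each hypoxia DEX library, against that library's list minimum as % of its median tags at the sites in all 9 DEX lists; orange is 6 h and red 24 h. The library with the lowest relative minimum, 24 h replicate 3 (27.8%), called 40.5% of the 257 sites, and the 4 libraries above 40% called at most 3.89%.

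The same rule was then applied to each DEX group in turn. In the lists as deposited, 257 sites were in all 3 normoxia lists and at most 1 of the other 6 DEX lists, against 6 sites for 6 h and 5 for 24 h of hypoxia. With every DEX list held to a score of at least 75 the numbers were 141, 0 and 3. With peaks of at least 86.6 normalized tags they were 38, 16 and 2. Next, every DEX list was held to peaks above the same share of its own median at the sites in all 9 lists. The share was 47.6%, that of 24h hypoxia DEX replicate 1, and the numbers were 39, 24 and 9. With all DEX lists shortened to the 1235 peaks of highest score they were 21, 20 and 21. At equal list length the 3 groups thus gave nearly the same number. For a hypoxia group, however, the other 6 lists include the other hypoxia group, so sites shared by both hypoxia groups were left out. The numbers of the 3 groups are therefore not like for like, and the cause of their shift was not tested. Sites in all 6 hypoxia lists and at most 1 normoxia list numbered 0 as deposited, 1 at a score of 75, 1 at 86.6 tags, 16 at the signal-scaled threshold and 28 at equal list length.

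**Figure D5:**
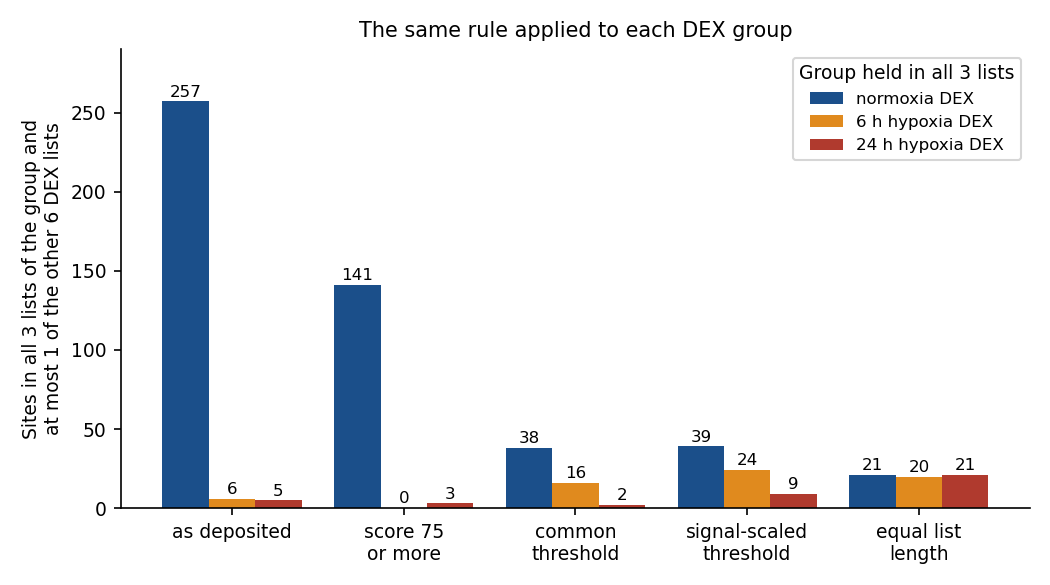
Number of sites in all 3 lists of a DEX group and at most 1 of the other 6 DEX lists (y axis), for normoxia, 6 h and 24 h of hypoxia, with the lists as deposited and held to 4 other thresholds. The bars are 257, 6 and 5 as deposited and 21, 20 and 21 at equal list length.

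Few of the 257 sites still met the rule when the lists were made more alike. These settings only take peaks away, so one of the 257 could drop out only by losing a normoxia DEX peak. Which sites were kept thus follows their level in normoxia, and a site that dropped out did not gain a hypoxia peak. At equal list length 9 of them did (3.50% of the 257 and 9 of the 21 sites found then), and with the signal-scaled threshold 12 (4.67%, of 39). The 9 were those nearest to Acsl1, Cpeb4, Dynlrb1, Fam71e1, Gdf15, Map4k3, Mknk2, Ppard and Scara5, and each was also among the 12. With the common minimum of 86.6 tags and with a score of at least 75 added, Acsl1, Dynlrb1, Gdf15 and Scara5 were left. The common minimum is the highest hypoxia minimum. Of the 257, only the 4 sites above every hypoxia minimum could therefore be left, and this is no further support for them.

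Where a hypoxia list did have a peak at 1 of the 155 sites, its value was more often below the normoxic ones than above them. A value is seen only where it passed that list's minimum, so lower ones are missing. The sites were also chosen for 3 normoxia peaks and at most 1 hypoxia peak, which by itself can favour lower hypoxic values. The median of the single hypoxic value was 53.8 tags, against 61.0 for the normoxia means of the same sites. The hypoxic value was below all 3 normoxic values at 72 sites, between them at 65 and above them at 18. Of the 18, 10 were from 6h hypoxia DEX replicate 2, in which the lowest peak listed held 83.2 tags. Values in 24h hypoxia DEX replicate 3, where 104 of the 155 peaks lay, were below all 3 normoxic values at 58 sites. They were between them at 41 and above at 5. The lowest peak listed in that library held 38.8 tags.

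The normoxia libraries differed among themselves at these sites too. The lowest of the 3 normoxia values was in replicate 3 at 152 sites, in replicate 1 at 89 and in replicate 2 at 16. A score under 60, close to the minimum of 50, was the lowest of the 3 at 67.6% of the sites in 0 hypoxia lists and 72.9% of those in 1, against 1.60% of the sites in all 9 DEX lists.

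By nearest protein-coding gene, the sites were spread over 242 genes, and 25 of the 308 genes in 17 lists of liver, glucocorticoid and hypoxia genes were among them (8.12%, against 1.11% of all 21900 coding genes). The lists hold many genes with receptor sites in general: 109 of the 308 were nearest to at least 1 of the 1910 sites. Of all 21900 coding genes, 1368 were. The 25 were thus 25 of 109 such listed genes, and the 242 were 242 of 1368. Genes nearest to any of the 1910 sites numbered 24 in the classical glucocorticoid list and 13 in the glucose, glycogen and insulin list. They numbered 11 for lipid synthesis and lipoprotein genes, 10 for bile acid and cholesterol genes and 14 for acute phase and inflammation genes. The counts below are descriptions, and a nearest gene is not shown to be a target.

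Of 26 classical glucocorticoid-induced genes, 4 were nearest to a site: Errfi1, an inhibitor of EGF receptor signalling, Klf15, a transcription factor of amino acid breakdown, Pck1, the gluconeogenic enzyme PEPCK, and Tsc22d3, which encodes the anti-inflammatory protein GILZ. At Errfi1 the site reached into the promoter window and held 53.9, 52.5 and 61.9 tags in normoxia DEX and 59.3 in 24h hypoxia DEX replicate 3, inside the normoxic range. At Pck1, 6126 bp from the gene, it held 75.1, 64.9 and 48.8 tags, with 69.6 in that same hypoxic library, again inside the range. The site inside Tsc22d3 held 50.8, 68.7 and 48.0 tags with no hypoxia peak, and the Klf15 site, 22773 bp away, 56.1, 73.5 and 49.5 with 49.0 in 24h hypoxia DEX replicate 3. Of the 26 genes, 21 were nearest to a site in all 9 DEX lists. Pck1 was the only one of 21 gluconeogenesis and amino acid genes with one of the 257. Of those gluconeogenesis and amino acid genes, 11 were nearest to any of the 1910 sites.

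Glucose, glycogen and insulin genes had 5 of 25, and 4 are described. Irs2, an adaptor of the insulin receptor, was 56177 bp from a site that held 84.2, 77.3 and 61.2 tags in normoxia DEX and 58.5 in 24h hypoxia DEX replicate 3. At Ppp1r3b, a glycogen-targeting phosphatase subunit, the values were 64.5, 64.9 and 58.1 tags, with 62.9 in 6h hypoxia DEX replicate 1. Foxo3 (mean 54.9 tags), a transcription factor restrained by insulin, and Trib1 (61.3), a pseudokinase that controls lipid synthesis, were also among them. All 5 were in 1 hypoxia list.

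Lipid synthesis and lipoprotein genes had 3 of 27. Chka, which starts phosphatidylcholine synthesis, lay 5585 bp from a site with 80.4, 81.1 and 65.0 tags and no hypoxia peak. Apoc3, whose protein inhibits triglyceride clearance, held one with 53.1, 59.2 and 55.7 and no hypoxia peak, and Agpat2 one with a mean of 54.8 and a hypoxia peak. Acsl1 was the only one of 26 fatty acid oxidation and ketogenesis genes, of which 6 were nearest to any of the 1910 sites.

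Bile acid and cholesterol genes had 4 of 23, and 3 are described. Nr0b2, which encodes the bile acid-induced corepressor SHP, lay 431 bp from a site with 77.4, 88.8 and 60.4 tags in normoxia DEX and 45.9 in 24h hypoxia DEX replicate 3, below all 3. The site at the start of Cyp27a1 printed above held 56.1, 49.6 and 48.0 tags and had no hypoxia peak. Scarb1, the HDL receptor gene, held a site with 48.6, 64.9 and 65.8 tags and a hypoxic value of 53.8.

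Acute phase and inflammation genes had 5 of 25, Cebpb and Tsc22d3 among them. Cxcl1 held 62.2, 70.6 and 77.4 tags at the start printed above and 53.3 in 6h hypoxia DEX replicate 3, below all 3. Hp, the gene of the haemoglobin-binding protein haptoglobin, lay 15 bp from a site with 103.2, 65.9 and 41.8 tags, a wide spread, and no hypoxia peak. Il6ra, the interleukin-6 receptor gene, held one with a mean of 52.1 tags and no hypoxia peak.

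Hypoxia and iron genes were few. Of 26 targets of the hypoxia-inducible factors, Ndrg1, a stress-response gene, was the only one, with a pair of sites 42110 and 45312 bp away. They held means of 65.6 and 63.2 normoxia tags and 46.7 and 70.4 tags in 24h hypoxia DEX replicate 3, the first below all 3 normoxic values and the second between them. None of 11 oxygen sensing genes and none of 16 genes of the receptor and its partners was nearest to one of the sites. Genes nearest to any of the 1910 sites numbered 9 for the HIF targets, 4 for oxygen sensing and 2 for the receptor and its partners. Iron and heme genes had 2 of 17, Scara5 and Tmprss6, the latter a protease that restrains hepcidin (mean 51.4 tags). The clock had 1 of 19, Ciart, a repressor in the clock (mean 65.5 tags), and liver transcription factors 1 of 18, Cebpb. In the iron, clock and transcription factor lists, 5, 8 and 7 genes were nearest to any of the 1910 sites. None of 15 hepatocyte markers, 15 markers of Kupffer cells or other leukocytes, 14 of endothelium and 16 of stellate cells or cholangiocytes was nearest to any of the 257. Only 5 of the hepatocyte markers, 3 of the endothelial and 0 of the other markers were nearest to any of the 1910 sites. The lack of markers thus says little about the 257.

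In PBS livers few of the sites had a peak. Of the 257, 29 (11.3%) had a peak in at least 1 of 9 PBS lists. The share was 25.1% for the sites in 2 to 5 hypoxia DEX lists and 77.6% for those in all 9 DEX lists. For all 1910 normoxia DEX sites it was 49.0%. Of the 29, 28 were in normoxia PBS replicate 1, which stood apart with 43645787 tags, a peak size of 280 bp, a score minimum equal to 11.5 normalized tags and 3915 peaks, and they held 11.2 to 21.3 tags there. Without that library 3 of the 257 (1.17%) had a PBS peak. The share was then 14.1% for the sites in 2 to 5 hypoxia DEX lists and 41.8% for the 1910. The site 10341 bp from Cd81 was in most PBS lists, 3 of 9, with 21.3, 40.6 and 31.6 tags, and the site inside Arl15 was in 2, with 12.6 and 46.5. Those near Nr0b2 and Caprin1 and in Rtn4rl1 were in 1 each, all in normoxia PBS replicate 1.

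PBS lists took no part in choosing the sites, but a test of hypoxia there had little reach. In Fisher's exact test (two-sided, Benjamini-Hochberg over 632 sites in at least 2 PBS lists), detection in 6 hypoxia PBS against 3 normoxia PBS libraries was called at 0 sites (0.0%). Only 3 sites had an unadjusted p under 0.05, and the smallest was 0.0476. The smallest p that 3 against 6 libraries can give is 0.0119 in the exact test, and 151 sites at that p would be needed to pass the adjustment, so the 0 says nothing about whether hypoxia changed detection. Of the 257 sites, 2 were in enough PBS lists to enter. Cd81 was detected in 2 of 3 normoxia and 1 of 6 hypoxia PBS libraries (exact p = 0.226, adjusted p = 1) and Arl15 in 1 of 3 and 1 of 6 (exact p = 1, adjusted p = 1). The other 255 were in fewer than 2 PBS lists and were not tested.

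A protein-coding gene held 156 of the 257 (60.7%, Wilson 54.6 to 66.5). The share was 56.3% for the sites in 2 to 5 hypoxia lists and 53.0% for those in all 9 DEX lists. It was 66.8% for all 7398 sites, and 55.6% without those found only in normoxia PBS replicate 1. Within 1 kb of a gene end lay 28 (10.9%, Wilson 7.65 to 15.3), against 13.1% and 9.63%. Of all 7398 sites 39.1% lay that near, and 11.2% without the sites found only in normoxia PBS replicate 1. A site of all 9 DEX lists lay within 10 kb of 32 (12.5%), against 12.7% of the sites in 2 to 5 lists, and within 50 kb of 64 (24.9%).

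Some genes gathered more than 1 of the sites. Zmiz1, a transcriptional coregulator gene, was nearest to 3, with means of 59.9, 54.9 and 49.2 normoxia tags. Each had a peak in 24h hypoxia DEX replicate 3, and the site with a mean of 54.9 lay 249296 bp from the gene. Another 13 genes were nearest to 2: Adcy1, Cab39l, Dio3, Dym, Egfr, Fam71e1, Ndrg1, Retreg1, Serpina1e, St3gal5, Tpst2, Uaca and Wbp1l. Some of these sites were far from the gene: those of Uaca lay 142026 and 151420 bp away, those of Dio3 234774 and 34388 bp. The closest pair, 929 bp apart, lay beside Serpina1e, an alpha-1-antitrypsin gene, and held means of 77.4 and 56.0 tags with no hypoxia peak at either. This gene is one of several near-identical copies, so reads there may be split among them. In Egfr, the gene of the epidermal growth factor receptor, a site in 0 hypoxia lists (mean 64.6 tags) lay 2980 bp from a site in 1 (55.5). Of the 257 sites, 65 shared their nearest gene with a site in all 9 DEX lists.

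Sites of all 9 DEX lists beside the 257 have a value in every DEX library. Those named were picked after their values were seen, and their difference is the contrast that chose the 257, so no test is given. At 35 sites of all 9 DEX lists within 10 kb of one of the 257, the median log2 difference of hypoxia minus normoxia was -0.11, and 57.1% were lower, with each library's log2 tags centred on its median over the 935 sites. At the 900 farther away the median was 0.06, and 39.6% were lower. Within 50 kb the 95 sites had a median of -0.00, and 50.5% were lower. At the Ppard site 7047 bp from the one described above, normoxia DEX held 374.8, 546.0 and 446.7 tags. The hypoxia DEX libraries held 143.3, 178.4 and 95.2 tags after 6 h and 88.9, 213.6 and 215.9 after 24 h, all below the lowest normoxic value (log2 difference -1.47). A nearer Ppard site, 3863 bp away, held means of 172 tags in normoxia and 138 in hypoxia, with overlap between the groups (-0.23). At the Serpina1e site 766 bp from one of the pair, 373.2, 298.8 and 206.7 normoxia tags stood against 83.8 to 240.4 in hypoxia, with overlap between the groups (-0.95). In Scarb1 a site 26693 bp from the weak one held 360.0 to 486.3 tags in normoxia and 69.2 to 285.8 in hypoxia (-1.33), while those 6170 and 37976 bp away differed by -0.22 and -0.32. Other neighbours were higher in hypoxia, such as one of Aco1, the iron-regulated cytosolic aconitase gene, with means of 201 tags in normoxia and 259.65 in hypoxia (0.47), and one of Mtarc2 with 61.7 and 89.5 (0.64). A site of Errfi1 740 bp from the weak promoter site differed by 0.02, with means of 155 tags in normoxia and 144 in hypoxia.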

How the data were processed

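Receptor ChIP-seq was measured in 18 liver libraries, grouped by their titles, with 3 inputs not analysed here as samples. Per the submitters' processing notes the tools were Trimmomatic, BWA 0.7.17, SAMtools 1.10 and HOMER, with build mm10. Per the file headers, peaks were called in each library alone against the input of its oxygen condition, at 4-fold and a Poisson p of 1e-04 over input and the surrounding 10000 bp. The deposited signal is the authors' normalized tag count, scaled to 10000000 tags. The deposited score, at least 50 in every list, is the authors' peak caller score, and the deposited fold over input or local background is a ratio; both served to rank or describe peaks within a list. DEX libraries held 5772670 to 13181686 tags and PBS libraries 8667179 to 43645787, and no 2 lists were identical.

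Peaks overlapping by 1 bp were merged, and a site's value in a library is that of its highest peak. Sites, gene lists and tests were chosen with earlier results of these data known. Genes named are the 12 strongest sites in 0 and the 6 strongest in 1 hypoxia list, sites nearest to a listed gene, the 5 in most PBS lists, genes nearest to 2 or more sites, and up to 6 sites at a promoter; named neighbours were added after their values were seen, and the values of some sites are not reported here. The 21900 coding genes came from a GRCm38.p6 table without strand, so distance to either gene end took the place of distance to a start. Python 3.11.15, pandas 2.3.3 and SciPy 1.17.1 were used. The merging and the Fisher test were tested on simulated data. Alternatives were a 100 bp overlap, a common threshold, a score of 75, equal list lengths, a signal-scaled threshold, other gene sets and distances, and each DEX library left out.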

Additional observations from a re-analysis of the deposited data

How the results depend on the processing

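The number of sites depended on the peak threshold: 38 at the common threshold, 141 at a score of 75 or more, 21 at equal list length and 39 at the signal-scaled threshold, the last chosen after seeing the data. Their median normoxia DEX tags were then 103.9, 94.7, 99.3 and 86.6, and 1, 6, 2 and 7 had a PBS peak. The common threshold and the score of 75 also took weaker peaks out of the PBS lists, which lowers their PBS counts. Equal list length and the signal-scaled threshold changed the DEX lists only. With normoxia PBS replicate 1 not merged, or not counted (added later), 3 of 257 had one. Above every hypoxia minimum were 38 sites at the common threshold, which is that minimum and so lets all 38 pass, 2 at the signal-scaled one and 1 with the minimum taken from peaks of score 50 to 54, both added later. Inside a coding gene lay 47.4% at the common threshold, 50.4% at a score of 75, 71.4% at equal length, and 70.8% of the 257 with all genes of the table. Near a gene end lay 5.26% at the common threshold and 32.3% of the 257 within 5 kb, and 24.9% had a site of all 9 DEX lists within 50 kb. The cause of these shifts was not tested.

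Leaving out each DEX library in turn gave 260 to 473 sites: 473 without normoxia DEX replicate 2, 409 without replicate 3, 388 without 6h hypoxia DEX replicate 1 and 396 without 24h hypoxia DEX replicate 3. Above every minimum were 4 to 79 (79 without 6h hypoxia DEX replicate 2, 13 without normoxia DEX replicate 3, 9 without 6h replicate 1, 8 without 24h replicate 3). Medians were 54 to 62.6 tags, 29 to 61 sites had a PBS peak (61 without normoxia DEX replicate 2, 54 without 6h replicate 1 or 24h replicate 3), 57.5% to 62.0% lay inside a gene, 10.5% to 14.0% near a gene end and 10.8% to 14.6% near a site of all 9 lists. The PBS test called 0 of the sites without each PBS library in turn, and 0 with the replicate block, with a smallest p of 0.0741 in the exact test; with so few libraries it could hardly call any. Replicate numbers did not pair the PBS libraries: over 64 sites, correlations of same-numbered libraries ran from -0.651 to 0.477, and 1 of 9 libraries correlated best with its own number. The minimum of 39.5 to 86.6 tags limits what a missing hypoxia peak can show.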
